A study of Mus musculus with 12 samples.

Results

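The ageing of the control retina was measured by bulk RNA sequencing of 6 libraries, 3 from control mice of 3 months and 3 from control mice of 12 months, out of 12 libraries in the series. The 6 were chosen by their titles as the control libraries of both ages, and each gene is described by its level at 12 months relative to 3 months. The other 6 libraries came from mice labelled Glia-ABCA1KO, in which the cholesterol exporter Abca1 was deleted in glia, 3 at each of the same ages. They entered the model fit and served as a second pair of ages made of other libraries. The labels describe retinal tissue and name 2 genotypes, and elsewhere speak of Astro-KO mice, but strain, sex, Cre driver and any allele that the controls may carry were not stated. Whether replicates were different mice was not stated either, and the p-values then reflect only how much these samples vary, which may be technical. The labels give no date of collection or sequencing. Age and any date or handling that ran with it cannot be told apart.

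The mouse retina is mostly rod photoreceptors, which turn light into a fall of cyclic GMP through a visual pigment, transducin and a phosphodiesterase. Bipolar, horizontal, amacrine and ganglion cells carry the signal to the optic nerve, Muller glia and astrocytes support them, and microglia are the resident immune cells. With age, neural tissue is generally known for a low rise of interferon-linked, antigen-presentation and complement genes, and mice reach middle age during the span compared here. Immediate early genes are transcribed within minutes of neuronal activity or growth factor input, and Sprouty, Spred, dual-specificity phosphatase and ETS genes are transcribed when the ERK kinase cascade is active and restrain or relay it.

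The 6 control libraries held 29188368 to 30438026 counts, with 18545 to 18725 genes detected in each, and Gnat1, the alpha subunit of rod transducin, lay at 4589, 5620 and 4319 CPM at 3 months and 4646, 5044 and 4723 CPM at 12 months, where CPM is each count scaled to the size of its library. One library stood apart. Replicate 2 of the 3-month controls differed by more than 0.5 on the log2 scale from the mean of the other libraries of its group for 529 of 8018 genes of at least 20 CPM, 66 above and 463 below, against 14 to 73 genes in each of the other 5. It also held lens RNA, with the crystallin gene Cryaa at 1923 CPM against 12.7 and 67.0 CPM in the other 3-month controls and 3.80 to 9.42 CPM at 12 months. Its first principal component score was -47.3, while the other 3-month controls were at -8.74 and -9.81 and the 12-month controls at 18.1 to 25.3. Of 17 tested lens genes, 1, Lgsn, fell with all libraries (-3.39 ± 0.67 SE on the log2 scale) and lost its call without this one. Another 7, among them the crystallins Crygb, Crygc and Crygd, passed as lower only without it. Leaving it out did not make the ages equal in lens RNA. Summed over the 17 genes, the level was 4905 CPM in this library and 65.4 and 205.6 CPM in the other 3-month controls. It was 27.2 to 48.8 CPM at 12 months. List counts below are from all libraries, with the count without it given where it differs, and every gene said to have risen or fallen also passed without it unless stated. A second difference affected all 3 young controls: they held RNA of striated muscle genes, which the 12-month controls and the 3-month knockouts held at a much lower level. The skeletal actin gene Acta1 was at 15.2, 18.3 and 14.3 CPM in the young controls, 2.37, 2.12 and 2.09 CPM in the old controls and 2.60, 2.74 and 2.33 CPM in the young knockouts. The Y-linked gene Ddx3y was at 39.6, 19.98 and 40.5 CPM in the 3-month controls, with replicate 2 lowest, and at 30.6, 38.2 and 33.1 CPM in the 12-month controls, and Xist was at 0.272 CPM or less in all 6 control libraries.

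Across 16475 genes with enough counts to test, 347 genes (2.11%) differed between 12 and 3 months at an adjusted p below 0.05 (edgeR's quasi-likelihood test, Benjamini-Hochberg adjustment over all genes). Of these, 230 (1.4%) were higher and 117 (0.71%) lower at 12 months. Without the lens-bearing library, 452 genes (2.74%) passed, 292 higher (1.77%) and 160 lower (0.971%), and 284 genes (1.72%) passed in the same direction with and without it, 196 higher (1.19%) and 88 lower (0.534%). No gene passed in opposite directions, 63 passed only with that library and 168 only without it. The changes were mostly small: 146 of the 196 rises and 57 of the 88 falls were under 1 on the log2 scale. Leaving out each control library in turn left 157 genes called in every fit, 110 higher and 47 lower. One old library mattered most, since without replicate 2 of the 12-month controls the count was 200 genes, 139 higher and 61 lower, and without replicate 3 of that group 75 genes were lower. With a further library removed besides the lens-bearing one, the 452 became 142 and 147 without young replicates 1 and 3 and 284 without old replicate 2, and the 284 common to both fits became 115, 115 and 187. Here "rose" and "fell" are used of genes that passed this threshold in the fit of all libraries, log2 fold changes are of 12 over 3 months, and "rose by" is followed by that log2 fold change.

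**Figure D1:**
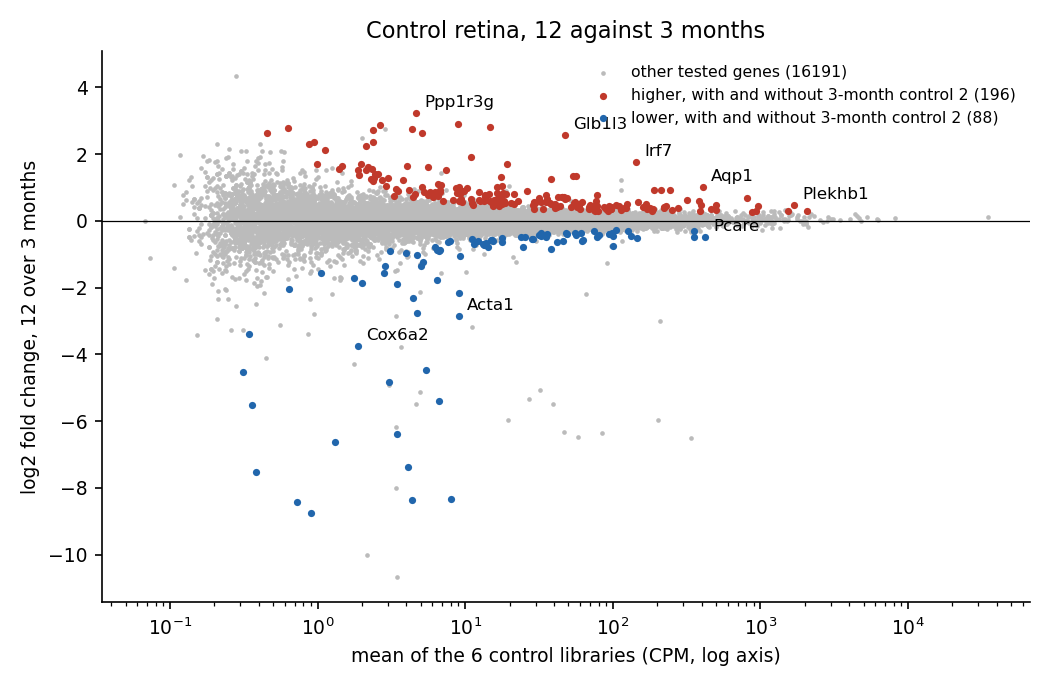
Each point is 1 of the 16475 tested genes, with its mean over the 6 control libraries in CPM on a log axis and its log2 fold change of 12 over 3 months. Red points are the 196 genes higher and blue points the 88 genes lower both with and without 3-month control 2; most lie within 1 of zero, and the points far below include genes of striated muscle (blue) and lens (grey).

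Several of the largest rises were in genes of low level in the young retina. Ppp1r3g, which targets protein phosphatase 1 to glycogen, measured 0.951, 1.01 and 0.736 CPM at 3 months and 8.81, 7.77 and 8.61 CPM at 12 months. The ranges were far apart, and the gene rose (log2 fold change 3.22 ± 0.21 SE, adjusted p = 7.4e-09, edgeR). Glb1l3, a member of the beta-galactosidase family, measured 13.9, 12.2 and 14.9 CPM at 3 months and 78.9, 86.97 and 78.0 CPM at 12 months. The old values were close together and far from the young ones. It rose by 2.58 ± 0.10 SE on the log2 scale and had the smallest adjusted p among the 12 largest rises (1.5e-12 in edgeR). The secreted ligands Wnt6 and Prok1 rose too, by 2.77 ± 0.23 SE and 2.35 ± 0.33 SE. Wnt6 measured 0.816, 1.48 and 1.07 CPM at 3 months and 6.84, 7.30 and 8.81 CPM at 12 months. Prok1, prokineticin 1, measured 0.374, 1.07 and 0.870 CPM at 3 months and 4.61, 3.23 and 4.05 CPM at 12 months. In both genes each old library was above each young one. Nod2, the cytosolic sensor of bacterial muramyl dipeptide, measured 0.442, 0.570 and 0.904 CPM at 3 months and 6.14, 5.45 and 2.46 CPM at 12 months, with 1 old library well under the other two but still above all young ones, and rose by 2.87 ± 0.36 SE (adjusted p = 6.8e-05, edgeR). Alpk2, an alpha-kinase, measured 3.91, 5.33 and 4.59 CPM at 3 months and 11.8, 22.7 and 17.8 CPM at 12 months and rose by 1.92 ± 0.26 SE. The predicted genes Gm2027 and Gm9292 rose by 2.72 ± 0.32 SE and 2.13 ± 0.48 SE, but their reads may be shared with near-identical copies, and Gm9292 lost its call when 3-month replicate 3, 12-month replicate 2 or 12-month replicate 3 was left out (highest adjusted p = 0.13, edgeR).

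Several of these rises came from neighbouring genes. Rdh1 and Rdh9, retinol dehydrogenase family members that oxidise retinol or steroids, lie 8106 bases apart on chromosome 10. Rdh1 measured 2.14, 1.71 and 2.54 CPM at 3 months and 14.99, 17.8 and 14.8 CPM at 12 months, and Rdh9 1.46, 1.11 and 1.67 CPM at 3 months and 8.81, 9.08 and 8.44 CPM at 12 months. No old value overlapped a young one for either, and the rises were 2.89 ± 0.22 SE and 2.63 ± 0.20 SE. The adjacent pseudogene Rdh18-ps, named after its values were seen, measured 0.0680, 0.369 and 0.469 CPM at 3 months and 1.07, 1.72 and 1.96 CPM at 12 months and rose by 2.37 ± 0.48 SE. These are paralogs, and the treatment of reads that map to more than 1 of them was not stated, which leaves the share of each uncertain. On chromosome 3, Prok1 overlaps the unnamed transcript A630076J17Rik, which rose by 2.24 ± 0.29 SE, and the nearby Cym, the gene of the milk-clotting protease chymosin, rose by 2.78 ± 0.49 SE from 0.238, 0.101 and 0.134 CPM to 1.603, 0.605 and 1.11 CPM. Overlapping reads cannot be assigned to Prok1 or A630076J17Rik without the strand setting. Among the 196 higher and 88 lower genes called with and without the lens-bearing library, 38 pairs of consecutive called genes lay within 300000 bases of each other. Of these, 25 were both higher, 7 both lower and 6 in opposite directions. The same count was not made over all tested genes, so whether these numbers are unusual was not tested. Another pair, again picked after seeing its values, was Irf7 and the dopamine receptor gene Drd4 on chromosome 7, which lie 25475 bases apart (rises of 1.75 ± 0.10 SE and 0.69 ± 0.10 SE).

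In interferon signalling 1 gene rose strongly, and in class I antigen presentation 3 of 22 rose, beside 1.4% of all tested genes. Irf7, the transcription factor that amplifies type I interferon induction, measured 62.4, 68.8 and 65.3 CPM at 3 months and 207, 261 and 194 CPM at 12 months. The old values were far above the young ones, and it rose (log2 fold change 1.75 ± 0.10 SE, adjusted p = 4.3e-09, edgeR; 1.79 without the lens-bearing library). It was the only one of 37 tested interferon-response genes that passed (median of the list 0.33 against 0.00 over all genes), although 28 of the 37 had a fold change above 0, against 8307 of all 16475 genes. Without the lens-bearing library, 2 of the 37 passed, Irf7 and Ifi27 (adjusted p = 0.029, edgeR). Canonical targets were low and scattered: Isg15, a ubiquitin-like modifier, measured 0.374, 0.972 and 0.971 CPM at 3 months and 0.735, 1.55 and 0.911 CPM at 12 months (log2 fold change 0.46 ± 0.51 SE, adjusted p = 0.81, edgeR), and its groups overlapped. Among the 22 class I genes none fell and the median was 0.26. H2-K1, a classical class I heavy chain, measured 34.1, 41.7 and 37.4 CPM at 3 months and 63.8, 53.9 and 63.1 CPM at 12 months and rose by 0.68 ± 0.09 SE (adjusted p = 9.4e-05, edgeR). Tap2, a subunit of the peptide transporter, rose by 0.58 ± 0.11 SE and Erap1, which trims peptides in the endoplasmic reticulum, by 0.75 ± 0.14 SE. Without the lens-bearing library 5 passed, adding H2-D1 (log2 fold change 0.34, adjusted p = 0.0055, edgeR) and H2-T22 (0.70, adjusted p = 0.039), whose values with all libraries were 0.27 (adjusted p = 0.058) and 0.61 (adjusted p = 0.065). B2m, the shared light chain, measured 14.8, 11.1 and 13.2 CPM at 3 months and 13.8, 15.3 and 16.98 CPM at 12 months, with overlapping groups and a log2 fold change of 0.24 ± 0.12 SE.

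To show the promoter letters beside these values, the 250 bases before the transcription start of Irf7, H2-T22 and Isg15 are printed 5′ to 3′ on the strand of the gene, from the RefSeq promoter table of build GRCm38.p6. Capitals mark matches, on either strand, to the interferon-stimulated response element GAAANNGAAA. The 3 genes were chosen because 1 rose strongly, 1 passed only without the lens-bearing library and 1 did not pass. The Irf7 window is chr7:141266425-141266674 on the minus strand, the H2-T22 window chr17:36042743-36042992 on the minus strand and the Isg15 window chr4:156200819-156201068 on the minus strand.
Irf7: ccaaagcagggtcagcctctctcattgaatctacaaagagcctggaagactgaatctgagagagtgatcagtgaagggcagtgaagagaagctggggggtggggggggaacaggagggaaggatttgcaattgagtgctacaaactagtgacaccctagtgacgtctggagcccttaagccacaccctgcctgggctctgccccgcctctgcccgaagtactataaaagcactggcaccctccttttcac
H2-T22: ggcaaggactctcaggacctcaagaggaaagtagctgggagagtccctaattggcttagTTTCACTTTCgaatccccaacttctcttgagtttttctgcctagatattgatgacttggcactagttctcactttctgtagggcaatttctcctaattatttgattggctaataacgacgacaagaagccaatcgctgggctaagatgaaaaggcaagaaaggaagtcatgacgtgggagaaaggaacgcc
Isg15: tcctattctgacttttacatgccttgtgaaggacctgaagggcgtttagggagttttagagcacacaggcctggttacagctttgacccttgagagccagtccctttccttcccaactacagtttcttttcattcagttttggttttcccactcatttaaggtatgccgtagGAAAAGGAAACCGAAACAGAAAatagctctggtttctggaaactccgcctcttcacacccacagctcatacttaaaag
Isg15 holds 3 matches, the first 78 bases before the start, H2-T22 holds 1 at 191 bases before it, and the Irf7 window holds none. That Irf7 window partly overlaps the annotated gene, which spans chr7:141263183-141266499, so it belongs to a start inside the gene. The promoter table has 32851 rows for 27025 genes, and only 1 start per gene was searched. Whether another Irf7 start holds the element was not examined. These letters were present in 13 of 26 interferon-response genes with an entry in the table (50%), in 3 of 19 class I genes (15.8%; B2m, H2-T22 and H2-T23) and in 3.04% of all 27025 genes of the table, with 1 window of 250 bases for each gene. Among the 139 matched genes that were higher with and without the lens-bearing library, 1 held it (0.719%), beside 2.33% of the 12475 matched tested genes. A match is a description of the letters and not a site of binding. Of the other motifs searched, the ETS core CCGGAAG was held by 3.6% of the matched rises and 4.35% of the 69 matched falls, beside 12.2% of the matched tested genes. The cyclic AMP element TGACGTCA was held by 2.16% of the matched rises (2.64% of tested genes), the E-box CACGTG by 7.91% (8.09%), the sterol element TCACNCCAC by none (0.962%) and the CArG box by 2.16% (1.18%), all on either strand. Of 24 immediate early genes with an entry, 2 held the cyclic AMP element and none the CArG box. The 3 response element matches of Isg15 share bases with each other; no overlap between different motifs was examined.

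Of 20 complement genes 2 rose and of 21 microglial genes 1 rose, beside 1.4% of all tested genes. C1qc, which encodes a chain of the complement initiator C1q made by microglia, measured 4.11, 4.39 and 3.95 CPM at 3 months and 7.41, 8.21 and 5.70 CPM at 12 months, with no overlap, and rose by 0.78 ± 0.17 SE (adjusted p = 0.013, edgeR). C4b, the complement component downstream of C1q, measured 9.65, 10.2 and 9.91 CPM at 3 months and 11.5, 17.6 and 16.3 CPM at 12 months and rose by 0.61 ± 0.14 SE. Both lost the call when a single library was left out, C1qc without 3-month replicate 3, 12-month replicate 1 or 12-month replicate 2 (up to adjusted p = 0.099) and C4b without any of 3-month replicate 1, 3-month replicate 3, 12-month replicate 2 or 12-month replicate 3 (up to 0.18, edgeR). These were the 2 of 20 complement genes that passed. No gene passed, with or without the lens-bearing library, among 7 class II antigen presentation genes (medians -0.09 and -0.08), 15 chemokine and cytokine genes (medians 0.09 and -0.01) and 5 lymphocyte and myeloid genes (median -0.15 without it). Among 21 microglial genes C1qc alone passed with all libraries, and C1qc and Csf1r without the lens-bearing library, with a list median of 0.28 (0.30 without it) and 18 of 21 fold changes above 0. Summed over the 21 genes, the microglial level was 64.6 to 69.6 CPM in the young and 84.2 to 90.1 CPM in the old controls. In bulk tissue, more cells of a type and more RNA per cell cannot be told apart. Cx3cr1, the fractalkine receptor of microglia, measured 4.08, 3.59 and 3.01 CPM at 3 months and 5.21, 5.25 and 5.91 CPM at 12 months (log2 fold change 0.62 ± 0.17 SE, adjusted p = 0.061), and the colony-stimulating factor receptor Csf1r 9.79, 11.6 and 9.87 CPM at 3 months and 12.8, 15.4 and 14.01 CPM at 12 months (log2 fold change 0.43 ± 0.12 SE, adjusted p = 0.075, edgeR). Neither pair of groups overlapped, yet neither gene passed with all libraries. Csf1r passed without the lens-bearing library (log2 fold change 0.52, adjusted p = 0.028, edgeR). Groups without overlap were common, with 1518 genes (9.21%) higher and 1365 genes (8.29%) lower across the whole table.

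Of the 56 gene lists, that of immediate early genes had the most rises. Of 29 tested members, 11 rose and 2 fell with all libraries, beside 1.4% higher and 0.71% lower over all tested genes. Without the lens-bearing library 10 passed higher and 2 lower. The list median was 0.21 with all libraries and 0.27 without that one. Nr4a1, a nuclear orphan receptor, measured 163, 171 and 164 CPM at 3 months and 298, 381 and 277 CPM at 12 months and rose by 0.94 ± 0.09 SE (adjusted p = 2.4e-06, edgeR). Junb, an AP-1 subunit, measured 51.4, 64.99 and 58.5 CPM at 3 months and 95.8, 105 and 96.2 CPM at 12 months, and Egr1, a zinc-finger transcription factor, 137, 143 and 162 CPM at 3 months and 207, 309 and 317 CPM at 12 months. For all 3 genes, every old library was above every young one, and the rises of Junb and Egr1 were 0.76 ± 0.09 SE and 0.91 ± 0.12 SE. Fos, the partner of Jun proteins, was close in the young retinas at 59.4, 58.3 and 59.8 CPM, lay at 70.8, 87.98 and 79.8 CPM in the old ones and rose by 0.43 ± 0.08 SE. Ier2 and Ier3 rose by 0.72 ± 0.12 SE and 0.46 ± 0.09 SE. These 6 genes kept the call with every control library left out. Arc, an activity-dependent postsynaptic protein, and Npas4, a transcription factor induced by calcium entry, rose by 0.80 ± 0.19 SE and 0.51 ± 0.13 SE with all libraries, and Fosb, Atf3 and Sik1 by 0.81 ± 0.20 SE, 0.57 ± 0.15 SE and 0.53 ± 0.13 SE. The calls of the last 3 were lost without the lens-bearing library (adjusted p = 0.1, 0.055 and 0.092, edgeR), and those of Arc without any of the other 5 control libraries and of Npas4 without 3-month replicates 1 or 3 or 12-month replicates 1 or 2 (up to 0.12 and 0.22). The 2 falls were in Fosl2, an AP-1 subunit (log2 fold change -0.60 ± 0.14 SE), and Klf2, a Kruppel-like factor known for its induction by blood flow (-0.67 ± 0.15 SE). These calls were lost without 3-month replicate 1, 12-month replicate 1 or 12-month replicate 3 for Fosl2 and without any control library but the lens-bearing one for Klf2 (up to 0.12 and 0.13). Of 22 circadian clock genes, 1 rose, the repressor Nfil3, by 0.52 ± 0.09 SE. The count was 3 without the lens-bearing library, which added the repressors Nr1d1 and Bhlhe41 (adjusted p = 0.042 and 0.025, edgeR). The labels give no time of day of collection.

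Among genes that answer to ERK signalling, falls outnumbered rises. Of 15 tested members, 6 fell and 2, Egr1 and Ier3, which are also immediate early genes, rose. Over all tested genes, 0.71% fell and 1.4% rose. The list median was -0.29 (-0.28 without the lens-bearing library, with 5 lower and 2 higher). The ETS factor Etv5 measured 49.3, 52.7 and 50.3 CPM at 3 months and 29.8, 33.2 and 34.8 CPM at 12 months and its relative Etv4 17.6, 15.4 and 17.1 CPM at 3 months and 9.72, 10.3 and 10.5 CPM at 12 months. In both, the young values lay close together and above all old ones, and the log2 fold changes were -0.64 ± 0.08 SE (adjusted p = 7.3e-05) and -0.72 ± 0.11 SE (adjusted p = 5.9e-04, edgeR). Dusp4, a nuclear phosphatase of ERK, measured 73.3, 78.1 and 73.7 CPM at 3 months and 46.98, 55.1 and 50.9 CPM at 12 months, and Spred3, an inhibitor of Raf activation, 95.2, 91.3 and 87.3 CPM at 3 months and 70.6, 63.4 and 60.2 CPM at 12 months. Again the groups did not overlap, with log2 fold changes of -0.56 ± 0.09 SE and -0.50 ± 0.09 SE. The Sprouty genes Spry4 and Spry2 fell (log2 fold changes -0.57 ± 0.12 SE and -0.32 ± 0.08 SE). Spry4 lost the call without 12-month replicate 1 (adjusted p = 0.06), Spry2 already without the lens-bearing one (adjusted p = 0.054, edgeR). Dusp6, another ERK phosphatase, was at -0.21 ± 0.12 SE and did not pass (adjusted p = 0.51).

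**Figure D2:**
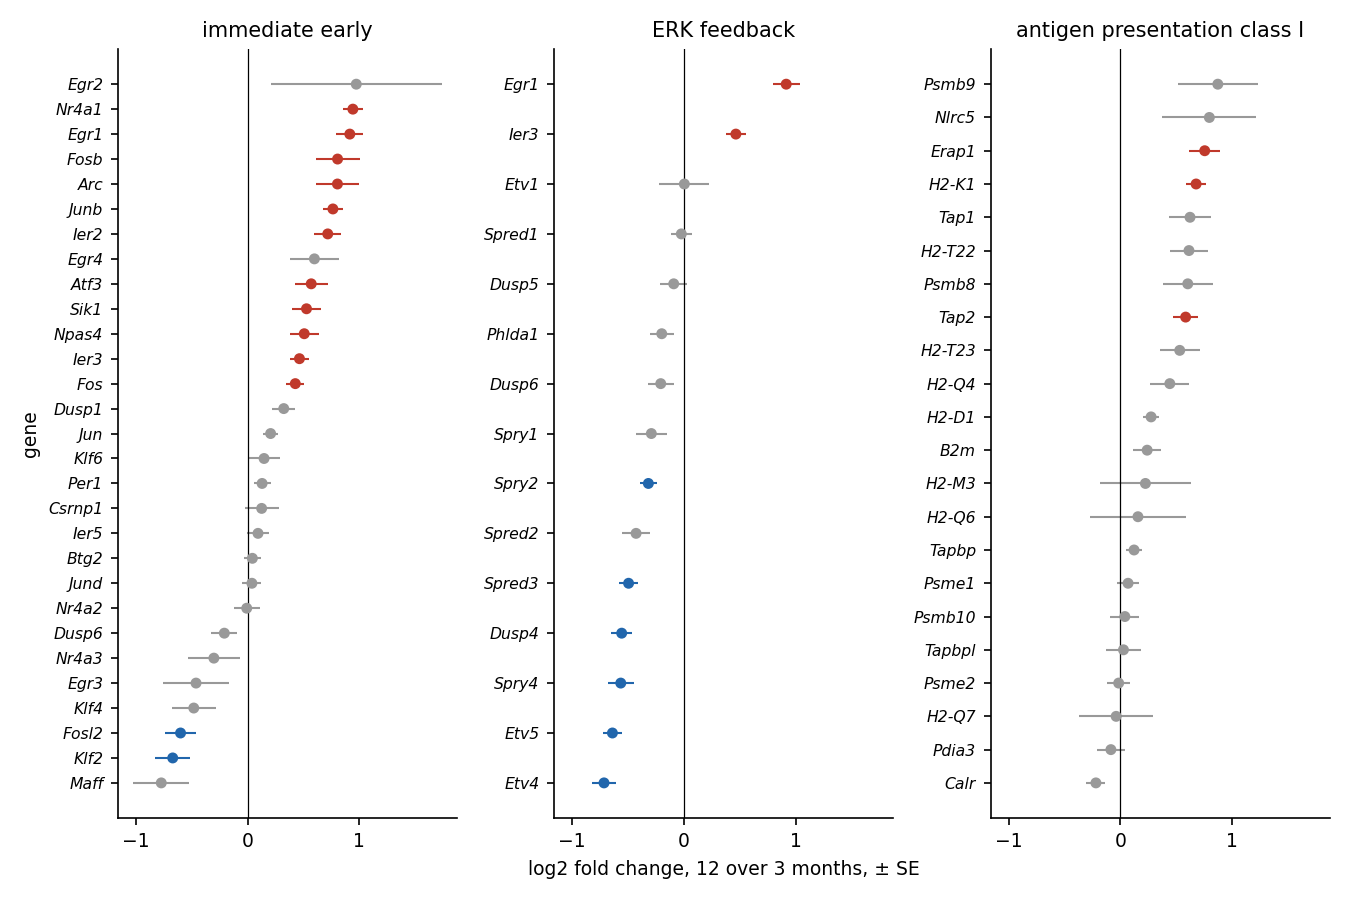
Log2 fold changes of 12 over 3 months in control retina, with bars of ± 1 SE, for all tested members of the immediate early (29), ERK feedback (15) and class I antigen presentation (22) lists; red marks genes that rose, blue genes that fell and grey genes that did not pass. In the immediate early list 11 of 29 are red and 2 blue, in the ERK feedback list 2 of 15 are red and 6 blue, and in the class I list 3 of 22 are red.

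Most genes of the photoreceptor lists changed little, and the genes of the rod list that passed all rose. Outside these lists, Drd4 and Plekhb1 rose and Pcare fell, as given below. Of 20 rod genes 3 rose and none fell (5 rose without the lens-bearing library), beside 1.4% higher over all tested genes. The list median was 0.14. Esrrb, an orphan nuclear receptor active in rods, measured 798, 879.7 and 784 CPM at 3 months and 1052, 1209 and 1062 CPM at 12 months and rose by 0.43 ± 0.08 SE (adjusted p = 0.0022, edgeR). Samd7, a Polycomb-associated repressor that keeps rods from expressing other genes, measured 145, 127 and 145 CPM at 3 months and 194, 209.7 and 188 CPM at 12 months and rose by 0.51 ± 0.07 SE. Grk1, a kinase that shuts off the light response, measured 1899, 1783 and 1906 CPM at 3 months and 2162, 2436 and 2298 CPM at 12 months. The groups were separate, but the rise of 0.30 ± 0.07 SE lost its call without any of 4 single libraries (3-month replicates 1 and 3, 12-month replicates 2 and 3; up to adjusted p = 0.18, edgeR). In the phototransduction list of 24, Grk1 and Gnb5, the G protein subunit that partners the GTPase accelerator Rgs9, passed, Gnb5 at 0.28 ± 0.07 SE and likewise not without 4 of the single libraries (3-month replicates 1 and 3, 12-month replicates 2 and 3; up to 0.16). The count was 4 of 24 without the lens-bearing library, which added recoverin (Rcvrn) and the phosphodiesterase subunit Pde6g (adjusted p = 0.027 and 0.0498, edgeR), the same genes that brought the rod count to 5. With all libraries none of 15 cone genes passed, and Ccdc136 passed as higher without the lens-bearing library (log2 fold change 0.30, adjusted p = 0.024, edgeR). The cone arrestin Arr3 measured 257, 255 and 268 CPM at 3 months and 249, 238 and 268 CPM at 12 months, and the short-wave opsin Opn1sw was at 0.03 ± 0.07 SE. Drd4, which lowers cyclic AMP in photoreceptors, measured 601, 719.6 and 554 CPM at 3 months and 1055, 1063 and 908 CPM at 12 months and rose by 0.69 ± 0.10 SE (adjusted p = 2.1e-04, edgeR).

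Inner retinal neurons gave few calls. Among 17 bipolar genes Grm6, the glutamate receptor of ON bipolar cells, fell (log2 fold change -0.31 ± 0.07 SE), from 377, 421 and 379 CPM to 288, 341 and 322 CPM, and this call was lost without 12-month replicate 1 or 3 (up to adjusted p = 0.16, edgeR). Without the lens-bearing library, 2 of the 17 bipolar genes passed as higher, among them the G protein subunit Gng13 (log2 fold change 0.38, adjusted p = 0.014, edgeR). No gene passed among 8 horizontal, 19 amacrine and 23 ganglion cell genes, whose medians were -0.13, -0.06 and 0.01. The ganglion cell transcription factor Pou4f1 measured 45.6, 42.7 and 44.95 CPM at 3 months and 48.9, 44.96 and 44.8 CPM at 12 months, and the neurofilament Nefl was at -0.07 ± 0.07 SE. Both pairs of groups overlapped. Cplx4, a complexin of ribbon synapses, rose by 0.35 ± 0.08 SE as the 1 of 27 presynaptic genes, a call lost without 12-month replicate 2 or 3 (up to 0.091). Grik3, a kainate receptor subunit, rose by 0.59 ± 0.12 SE. Hdc, the enzyme that makes histamine, measured 30.2, 34.7 and 30.2 CPM at 3 months and 88.3, 86.03 and 67.4 CPM at 12 months and rose by 1.35 ± 0.10 SE (adjusted p = 4.7e-08, edgeR). Chrnb4, a nicotinic acetylcholine receptor subunit, measured 3.70, 4.89 and 3.68 CPM at 3 months and 1.57, 1.45 and 1.82 CPM at 12 months and fell (log2 fold change -1.34 ± 0.22 SE). Bdnf, a neurotrophin, was the only one of 25 growth factor genes that passed, with a log2 fold change of -0.88 ± 0.15 SE, from 9.99, 7.68 and 8.13 CPM to 4.81, 4.98 and 4.22 CPM. Hdc was named after its values were seen.

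Glial and vascular genes gave isolated calls. Of 20 Muller glia genes, Hes1, the Notch target that represses neuronal fate, rose by 0.60 ± 0.13 SE and lost the call without 3-month replicate 1, 3-month replicate 3 or 12-month replicate 3 (up to adjusted p = 0.12, edgeR). Spc25, a kinetochore component on that list, passed as lower without the lens-bearing library (log2 fold change -0.39, adjusted p = 0.0026, edgeR). None of 11 astrocyte genes passed, and the median of that list was -0.15 with all libraries and 0.08 without the lens-bearing one. Gfap, the intermediate filament that rises in reactive glia, measured 14.5, 18.9 and 14.3 CPM at 3 months and 11.6, 12.7 and 12.6 CPM at 12 months (log2 fold change -0.37 ± 0.12 SE, adjusted p = 0.14, edgeR), with the lens-bearing library highest. Of 21 reactive glia genes none rose and 2 fell with all libraries, beside 0.71% lower over all tested genes. The 2 were the intermediate filament Nes (-0.86 ± 0.19 SE on the log2 scale) and the transcription factor Cebpd (-0.77 ± 0.16 SE). The sphingosine-1-phosphate receptor gene S1pr3 passed as higher without the lens-bearing library (log2 fold change 0.48, adjusted p = 0.0028, edgeR). Both falls were lost without single libraries, Nes without replicate 3 of either age and Cebpd without 3-month replicate 3 or any 12-month library (up to 0.1 and 0.066). Plvap, a protein of fenestrated endothelium, rose by 0.63 ± 0.10 SE as 1 of 20 endothelial genes, while the median of that list was -0.26. The glucose transporter gene Slc2a1 passed besides it without the lens-bearing library (adjusted p = 0.032, edgeR). Of 15 pericyte and smooth muscle genes 2 fell, with a list median of -0.32 (-0.18 without the lens-bearing library). The pericyte marker Rgs5 fell (log2 fold change -0.61 ± 0.14 SE), a call lost without 3-month replicate 1, 12-month replicate 2 or 12-month replicate 3 (up to 0.15). The other was Des, which is also a striated muscle gene and is given with those below. Abca1, the gene deleted in the glia of the knockouts, measured 20.7, 20.9 and 26.6 CPM at 3 months and 32.6, 27.7 and 31.9 CPM at 12 months (log2 fold change 0.44 ± 0.14 SE, adjusted p = 0.14). Its groups did not overlap and it did not pass, and the whole-retina level was 27.5, 27.2 and 24.3 CPM in the young and 27.4, 39.01 and 42.5 CPM in the old knockouts. With all libraries no gene passed among 20 of pigment epithelium, 14 of sclera and meninges, 12 of myelin and 3 of blood, and without the lens-bearing one the collagen Col3a1 of the sclera list passed as lower (adjusted p = 0.039, edgeR).

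**Figure D3:**
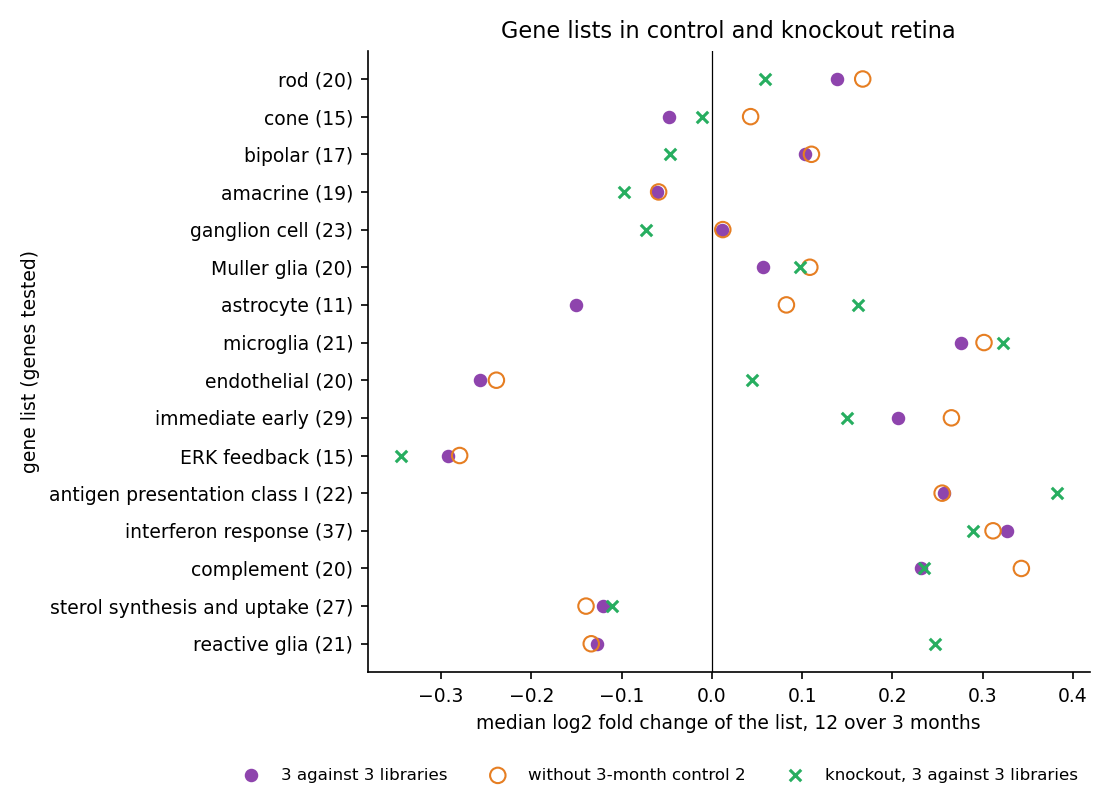
Median log2 fold change of 12 over 3 months for 16 gene lists, with the number of tested genes in brackets, in control retina with all 6 libraries (filled circles), in control retina without 3-month control 2 (open circles) and in knockout retina (crosses). The interferon, class I, complement, microglia and immediate early lists lie right of zero and the ERK feedback and sterol lists left of it in all 3 comparisons, while the astrocyte and cone medians change side without 3-month control 2. The reactive glia, endothelial, bipolar and ganglion cell medians keep their side in both control comparisons and lie on the other side in knockout. For reactive glia the medians are -0.13 and -0.13 in control and 0.25 in knockout.

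Most metabolic lists gave few calls. Of 30 glycolysis and glycogen genes 1 rose, Ppp1r3g, with a median of 0.11. In the fit without the lens-bearing library 4 passed as higher and the median was 0.18. The added genes were Aldoa, an aldolase, Pygm, the muscle glycogen phosphorylase, and Slc2a1 (log2 fold changes 0.26, 0.27 and 0.26). Of 27 sterol synthesis and uptake genes, 26 had fold changes below 0, but the median was only -0.12 and 1 gene passed: Insig1, which holds the sterol sensor Scap in the endoplasmic reticulum, measured 107, 112 and 110.5 CPM at 3 months and 95.3, 87.8 and 75.2 CPM at 12 months and fell (log2 fold change -0.35 ± 0.08 SE) (adjusted p = 0.021; up to 0.15 without 3-month replicate 3, 12-month replicate 2 or 12-month replicate 3, edgeR). Without the lens-bearing library 4 of the 27 passed, all lower: Insig1, the sterol carrier Stard4, and Hmgcs1 and Idi1 of the mevalonate pathway (for the last 2, log2 fold changes -0.35 and -0.67), which were -0.25 and -0.38 with all libraries. Idi1 measured 15.4, 6.67 and 14.4 CPM in the young controls, so that replicate 2, the lens-bearing library, lay below all old ones. No gene passed among 18 sterol efflux, 21 fatty acid, 39 nuclear oxidative phosphorylation and 25 antioxidant genes. The 13 genes of the mitochondrial genome also had none, and their median turned from 0.13 to -0.12 without the lens-bearing library. In the hypoxia list, Ddit4, an inhibitor of mTORC1, Ak4, a mitochondrial adenylate kinase, and Egln1, the prolyl hydroxylase that marks HIF for degradation, rose by 0.49 ± 0.10 SE, 0.43 ± 0.09 SE and 0.36 ± 0.08 SE, and all lost the call without 12-month replicate 2, Ddit4 also without 3-month replicate 3 and Egln1 also without 3-month replicates 1 or 3 or 12-month replicate 1 (up to adjusted p = 0.052, 0.12 and 0.18, edgeR). These were the 3 of 20 hypoxia genes that passed, beside 1.4% higher over all tested genes. Slc2a1 passed besides them without the lens-bearing library. Among 21 senescence and cell cycle genes, the inhibitor Cdkn2c rose by 0.80 ± 0.14 SE, Ccnd1, cyclin D1, rose by 0.42 ± 0.09 SE (up to 0.067 without 3-month replicates 1 or 3 or 12-month replicates 2 or 3), and Cdkn1a, which encodes p21, fell (log2 fold change -1.01 ± 0.18 SE). Cdkn1a measured 5.61, 7.005 and 6.16 CPM at 3 months and 2.24, 3.40 and 3.68 CPM at 12 months, with no overlap.

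Genes that kept their call in every fit with 1 control library left out were ranked by CPM. Some of those with the highest CPM, a measure that also grows with transcript length, were named after the values were known. Plekhb1, a membrane-binding protein of photoreceptors, measured 1380, 1443 and 1392 CPM at 3 months and 1960, 2156 and 1770 CPM at 12 months and rose by 0.48 ± 0.07 SE. Aqp1, a water channel, measured 253, 302 and 249 CPM at 3 months and 498, 674 and 457 CPM at 12 months and rose by 1.02 ± 0.11 SE (adjusted p = 5.6e-05, edgeR). Both were higher in each old library. Aqp1 is also abundant in ciliary body and iris, and the other 10 tested genes of that list summed to 192 to 219 CPM in the young and 177 to 224 CPM in the old controls. The dense-core vesicle protein gene Ptprn and the palmitoyltransferase gene Zdhhc5 rose by 0.47 ± 0.07 SE and 0.59 ± 0.08 SE. On the other side, Pcare, needed for photoreceptor outer segments and linked to retinitis pigmentosa, measured 481, 512 and 494 CPM at 3 months and 318, 351 and 390.1 CPM at 12 months and fell (log2 fold change -0.49 ± 0.09 SE). Zfp36l2, which promotes mRNA decay, measured 417, 418 and 396 CPM at 3 months and 263, 318 and 305 CPM at 12 months and fell (log2 fold change -0.47 ± 0.07 SE). Vgf, a neuropeptide precursor, measured 183, 161 and 171 CPM at 3 months and 130.3, 124 and 106 CPM at 12 months and fell (log2 fold change -0.51 ± 0.08 SE), with no overlap in any of these 3 genes. The protease gene Adamts1 and the beta-1 adrenergic receptor gene Adrb1 fell too (log2 fold changes -0.84 ± 0.13 SE and -0.42 ± 0.08 SE). Kirrel, Ammecr1 and Shmt2, at higher mean CPM than Adamts1 and Adrb1, also fell (log2 fold changes -0.46 ± 0.09 SE, -0.77 ± 0.13 SE and -0.59 ± 0.09 SE).

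Of the largest falls, many were in genes of striated muscle. The skeletal muscle list had 18 of 33 tested genes lower and 1, Csrp3, higher (with Pygm as a second without the lens-bearing library), with a median of -1.72 (-1.67 without the lens-bearing library), and 7 of the 18 were at 3 counts or fewer in each old control. Tnni2, a fast troponin, gave 274, 269 and 235 counts at 3 months and 0, 2 and 0 counts at 12 months, and Myh4, a fast myosin, 256, 255 and 211 counts at 3 months and 0, 2 and 2 counts at 12 months. The muscle mitochondrial creatine kinase Ckmt2 gave 95, 82 and 54 counts at 3 months and 0, 2 and 0 counts at 12 months, and Tnnt3, another troponin, 16.1, 15.9 and 15.6 CPM and 0, 0.135 and 0 CPM. The 1 higher gene, Csrp3, a muscle LIM protein, measured 3.64, 3.96 and 3.51 CPM at 3 months and 24.04, 28.8 and 24.7 CPM at 12 months and rose by 2.80 ± 0.13 SE. In the 4 genes that fell all 3 young libraries were high and the old ones near 0. Cox6a2, Tcap, Des, Cox8b and Tpm2, which were outside that list but encode muscle-type proteins of respiration and the sarcomere, led the falls elsewhere, with log2 fold changes of -3.75 ± 0.48 SE, -2.75 ± 0.29 SE, -1.89 ± 0.21 SE, -1.87 ± 0.37 SE and -1.77 ± 0.20 SE. Cox8b lost its call without 12-month replicate 2 (adjusted p = 0.057, edgeR). The 3-month knockouts were low in the same genes, with Tnni2 at 0, 0.137 and 0 CPM and Tcap at 0.844, 1.78 and 1.22 CPM. The part of muscle RNA in other differences of the young controls was not tested. Outside the muscle list, 70 genes were lower with and without the lens-bearing library.

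Outside muscle and the lists of other tissues, the largest falls in genes of at least 1 CPM were smaller and of varied function. The epithelial mucin Muc4, below that level, fell more (log2 fold change -4.52 ± 0.87 SE). Dnaic2, an axonemal dynein chain of motile cilia, measured 7.37, 7.41 and 6.89 CPM at 3 months and 2.97, 2.52 and 3.004 CPM at 12 months, with little spread at either age, and fell (log2 fold change -1.35 ± 0.16 SE) (adjusted p = 4.0e-05, edgeR). Gulp1, an adaptor for engulfment of dying cells, measured 15.3, 8.85 and 13.5 CPM at 3 months and 5.11, 6.32 and 6.72 CPM at 12 months and fell (log2 fold change -1.05 ± 0.17 SE), with the lens-bearing library lowest of the young. Adgrg6, an adhesion receptor needed for Schwann cell myelination, Gpr3, a receptor that raises cyclic AMP without a ligand, and Slc30a10, a manganese exporter, fell (log2 fold changes -1.55 ± 0.40 SE, -0.97 ± 0.24 SE and -0.91 ± 0.21 SE). All 3 were at a few CPM and lost the call without at least 3 of the single libraries, replicate 3 of both ages among them (up to adjusted p = 0.21, 0.21 and 0.13, edgeR).

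**Figure D4:**
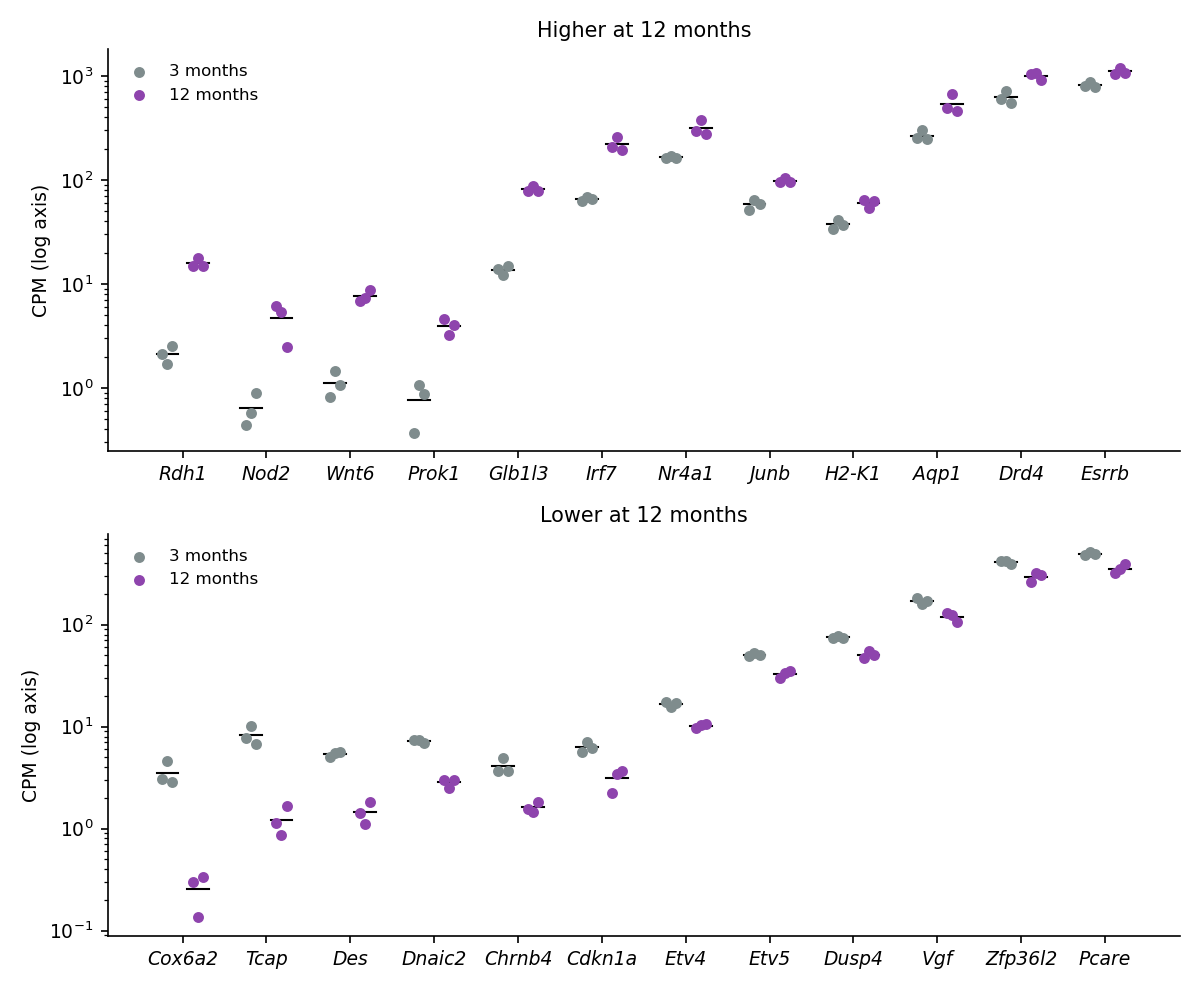
CPM in each control library, on a log axis, for 12 genes that rose (upper panel) and 12 that fell (lower panel), with 3-month libraries in grey, 12-month libraries in purple and a bar at the mean of the 3. In all 24 genes the groups do not overlap; Cox6a2, Tcap and Des are muscle genes, and the other falls are smaller.

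The knockout libraries gave a second comparison of 12 with 3 months that shares no library with the control one. In it 390 genes (2.37%) passed, 253 higher (1.54%) and 137 lower (0.832%). Of the 230 genes that rose in control, 131 also passed as higher in knockout, which is 57.0% of the control rises and 51.8% of the knockout rises, and 227 had the same sign. Of the 117 that fell, 36 passed as lower in knockout, 30.8% of the control falls and 26.3% of the knockout falls, and 99 had the same sign. No gene passed in opposite directions. The 36 became 18 to 22 when a young knockout library, replicate 2 of the old knockouts or replicate 2 of the old controls was left out. The 131 became 84 without replicate 3 of the young knockouts. Some omissions raised both counts: to 140 and 45 without replicate 1 of the old knockouts, and to 171 and 51 without the lens-bearing library. Old knockout replicate 1 differed from its partners (chi-square per degree of freedom 21.6 and 24.9) more than they did from each other (5.16). For the genes called with and without the lens-bearing library, the median log2 fold change was 0.65 in control and 0.55 in knockout for the rises and -0.70 and -0.34 for the falls. Rdh1, Wnt6 and Glb1l3 were at 2.98, 2.77 and 2.15 in knockout, and Etv5, Etv4 and Chrnb4 at -0.75, -0.75 and -1.38. The old knockout libraries also held Xist at 52.3, 70.7 and 85.5 CPM beside the Y-linked Eif2s3y at 71.4, 59.1 and 66.3 CPM, while Xist was at 0.405, 0.0686 and 0.609 CPM in the young knockouts, and the part of this in the knockout comparison was not tested.

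Only a few genes were shown to age differently in the 2 genotypes. The difference of the age effects passed for 21 genes (0.127%), none of them among the 230 rises and 13 among the 117 falls. Of those 13, 12 are genes of striated muscle, and the other is the mucin Muc4 of surface epithelia, which gave 16, 25 and 13 counts at 3 months and 2, 0 and 0 counts at 12 months in control. Acta1 fell (log2 fold change -2.86 ± 0.18 SE) in control and was at -0.17 ± 0.19 SE in knockout (adjusted p of the difference = 2.2e-05, edgeR), with knockout libraries at 2.60, 2.74 and 2.33 CPM at 3 months and 2.91, 1.78 and 2.14 CPM at 12 months. Esrrb was at 908, 892 and 976 and 862, 984 and 975 CPM in the young and old knockouts, with a log2 fold change of 0.02 ± 0.08 SE, and Ier3 was at 0.02 ± 0.09 SE, but for neither did the difference pass (adjusted p = 0.37 and 0.49, edgeR). Irf7 was at 1.16 ± 0.10 SE in knockout (adjusted p of the difference = 0.29). Of 21 reactive glia genes, 5 passed as higher and 1 as lower in knockout, where the list median was 0.25. The difference passed for 2 members of that list. Of the 70 non-muscle-list falls, 65 were below 0 in knockout, 30 passed there as lower and 4 differed between genotypes, Muc4, Des, Tpm2 and Tcap.

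**Figure D5:**
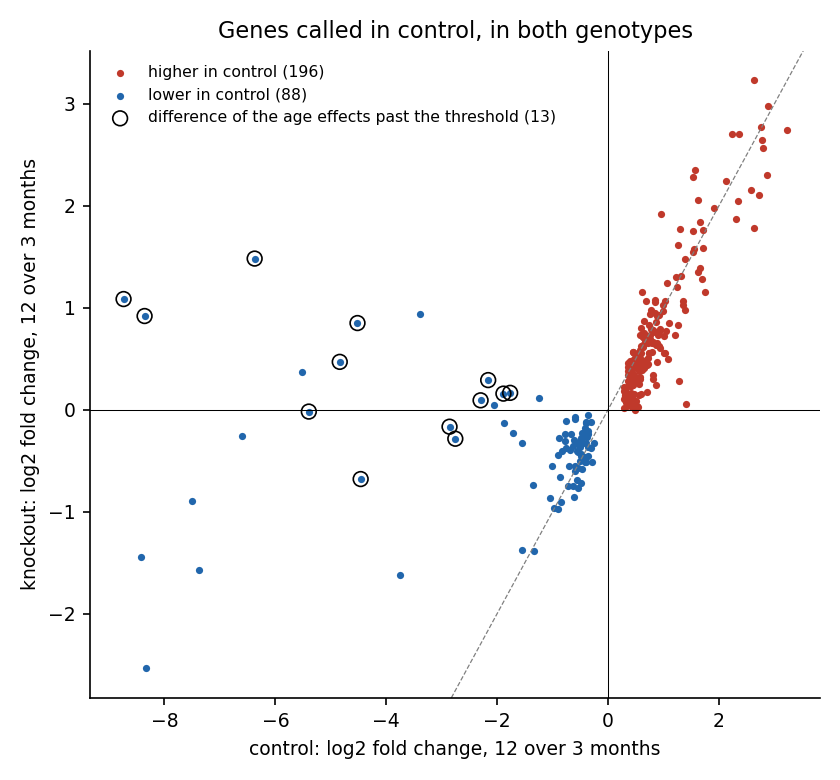
Log2 fold change of 12 over 3 months in control (horizontal) and knockout (vertical) retina for the 196 genes higher (red) and 88 lower (blue) in control with and without 3-month control 2; the dashed line marks equal change and black rings mark the 13 genes whose difference of age effects passed. Most red points lie near the line and 195 of the 196 above zero, while the ringed falls, 12 of them muscle genes, lie far from it.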

How the data were processed

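The authors deposited 1 table of raw read counts per library, over 27179 Entrez gene IDs, and these counts are the unit of all tests. Per the submitters' processing notes, the tools included HISAT2 2.1.0, featureCounts 1.6.4 and DESeq2 1.22.1 and the build was GRCm38. Per the labels' protocols, RNA from retina was made into stranded poly-A libraries. How strand, read pairs and reads with several hits were handled is not given in the sources used here. Even numbers made up 60.7% to 70.2% of counts of 1 to 20, so mates may have been counted separately. Overlapping, antisense and near-identical genes are therefore uncertain.

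IDs were named from RefSeq (25275) and GENCODE (18), and 1886 had no name (at most 0.282% of counts). Totals of 29027099 to 30438026 counts mean similar depth in all 12 libraries. Spread within groups was not similar, as 3-month control 2 and 12-month knockout 1 lay further from their partners than the other libraries did. Genes were kept by filterByExpr (16475), scaled by TMM and fitted with edgeR 4.0.16 (glmQLFit, robust; glmQLFTest) in R 4.3.3, with 1 coefficient for each of the 4 groups. CPM uses TMM-scaled library sizes, and SE is the log2 fold change over the root of F. The fit was repeated without 3-month control 2 on the same genes. Alternatives included DESeq2 1.42.0, limma 3.58.1 (voom) and sva 3.50.0. On simulated counts for this comparison (16277 genes), the test found 72.6% of 62 genes set to a 1.5-fold change. It found 90.0% of 70 at 2-fold and 98.5% of 68 at 4-fold, and 5 of its 180 calls were unchanged genes. Only genes of at least 1 CPM were changed, and each count was drawn independently. No simulated library was set apart, and no lens or muscle RNA was placed in single libraries or groups. These shares may therefore not hold in the real libraries.

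Members and gene lists were chosen with earlier results of these data known. Genes were named by this rule: called with and without 3-month control 2, at least 1 CPM and no overlap between ages, the 12 largest rises and 12 largest falls outside lists of other tissues, the 4 largest changes within those, and up to 4 called members of each list (or its 2 highest). All other genes in the text were chosen after their values were seen. The authors' comparison table was not used here. Some items are not reported here.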

Additional observations from a re-analysis of the deposited data

Results flagged for a closer look

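The change with age differed between control and knockout retina for 13 genes that the report describes, by a test of the difference itself (edgeR's quasi-likelihood test of the interaction, Benjamini-Hochberg adjusted over all 16475 genes). In all 13 the control level fell and the knockout level did not pass. The adjusted p of the difference was 2.2e-05 for Tnnc2 and for Acta1, 0.0004 for Myh1, 0.00065 for Atp2a1 and for Mylpf, 0.0025 for Des and 0.003 for Tpm2. It was 0.011 for Mb, 0.013 for Tnni2 and for Myl1, 0.018 for Tcap and 0.023 for Myh2. These 12 encode contractile, calcium-handling or oxygen-storage proteins of striated muscle, and the young controls were the group with high levels: Tnnc2, the fast troponin C, had a mean of 12.9 CPM there against 0.302 CPM in old controls, 0.341 CPM in young knockouts and 0.335 CPM in old knockouts. Mb, myoglobin, had 10.4, 0.469, 0.702 and 0.437 CPM in the same order. The last gene was the epithelial mucin Muc4 (0.033), at 0.606, 0.0223, 0.587 and 1.06 CPM.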

How the results depend on the processing

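No named gene reversed direction under the alternatives, while counts of called genes varied. Of 102 named genes 70 passed, and 38 of them kept call and direction under all 19 alternatives. Many were named because they passed in these libraries, which the alternatives reuse, so this describes stability and is not independent support. DESeq2 called 571 genes in control (350 higher, 221 lower), 62 falls shared with knockout and 41 differences. voom with quality weights called 773 (500 higher, 273 lower), 968 without 3-month control 2, 756 in common, 265 shared rises, 124 shared falls and 50 differences. With the 6 control libraries alone the counts were 195 (132 higher, 63 lower), 611 without 3-month control 2 and 189 in common. With 1 surrogate variable they were 554 (354 higher, 200 lower). At a threshold of 0.1 they were 560 (215 lower), 703 without 3-month control 2, 436 in common and 64 shared falls. Leaving out 1 library gave 200 to 452 genes in control, 139 to 292 higher, 61 to 160 lower, 142 to 364 without 3-month control 2 as well, 115 to 251 in common, 84 to 171 shared rises, 18 to 51 shared falls and 14 to 29 differences. The cause of these differences was not tested. Other normalizations (RLE, upper quartile), other filters, halved counts and library sizes without other-tissue genes kept every such count within 1.5 times. Of list counts, 1836 stayed within that range and 270 moved. Over all alternatives, 940 list medians were counted as the same and 113 as moved.

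Same-numbered young and old controls had correlations of -0.15, -0.152 and 0.0442, and all pairs of a young and an old control lay between -0.152 and 0.169. With 3 libraries per age, these values cannot show whether the numbers pair the samples. A replicate block on the 6 control libraries gave 136 genes (85 higher, 51 lower), beside 195 without the block.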
